A study of Mus musculus with 2 samples.

Results

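Growth hormone, STAT and SOCS genes were followed in mouse gastrocnemius, the large muscle of the calf. The 10 genes were Cish, Socs1, Socs2, Socs3, Stat3, Stat5a, Stat5b, Ghr, Igf1 and Bcl6, and each symbol matched 1 of the 55536 gene identifiers in the deposited tables. They were chosen by name, after differences between the libraries in these genes were already known, so every ratio between the libraries below is a description and no test is attached to it. Total RNA had been sequenced from 2 adult female B6CASTF1/J mice aged 8 to 10 months, with 1 library from each animal; B6CASTF1/J mice are hybrids bred by crossing B6 with CAST. Replicate 2 is the mouse labelled animal 3 and replicate 1 is the mouse labelled animal 1. The labels also give both samples the same donor identifier, so that they are 2 animals rests on these names. Neither animal carried a treatment or an engineered allele in the labels, and feeding state and hour of collection are not given in the labels used here. The animals form a single group, so no p-value can be given, and any difference between them may lie between animals, dissections or library preparations, which cannot be told apart.

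Growth hormone is released from the pituitary in pulses and binds the receptor encoded by Ghr, to which the kinase JAK2 is bound. JAK2 phosphorylates STAT5A and STAT5B, which enter the nucleus as dimers and bind DNA at a palindromic motif. Genes that respond include Cish and Socs2, whose proteins feed back to quieten the receptor, and Igf1, which encodes the growth factor that mediates much of the hormone's effect on muscle and bone. In mouse liver Bcl6, which encodes a transcriptional repressor that binds sequences resembling STAT sites, is itself repressed by growth hormone through STAT5. STAT3 and SOCS3 form a parallel arm that follows cytokines of the interleukin-6 family.

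The palindrome TTCNNNGAA, which reads the same on both strands, was searched in the promoter windows of the RefSeq table for build GRCm38.p6 (mm10), each running from 250 bases before an annotated start to 50 bases from it. Of the 10 genes, 9 had a window, with 13 windows in all, and 4 windows of 3 genes held 7 copies of the palindrome, none overlapping another. Among all 32851 windows of the table, 8.3% held at least 1 copy, 0.457% at least 2 and 0.0335% at least 3. Stretches are shown for every window that held it, in Cish, Socs3 and Bcl6. They run 5′ to 3′ on the strand of the gene, with the palindrome in capitals. They are the reference sequence, and the alleles of the hybrid mice were not examined.
Cish, chr9:107296654-107296683, plus strand: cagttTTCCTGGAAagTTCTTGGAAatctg
Socs3, chr11:117969367-117969616, minus strand: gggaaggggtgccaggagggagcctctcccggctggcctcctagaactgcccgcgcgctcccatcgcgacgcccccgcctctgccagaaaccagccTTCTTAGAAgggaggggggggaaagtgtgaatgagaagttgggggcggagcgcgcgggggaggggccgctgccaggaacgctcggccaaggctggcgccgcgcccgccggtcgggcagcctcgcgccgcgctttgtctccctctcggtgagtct
Bcl6 first start, chr16:23988853-23989102, minus strand: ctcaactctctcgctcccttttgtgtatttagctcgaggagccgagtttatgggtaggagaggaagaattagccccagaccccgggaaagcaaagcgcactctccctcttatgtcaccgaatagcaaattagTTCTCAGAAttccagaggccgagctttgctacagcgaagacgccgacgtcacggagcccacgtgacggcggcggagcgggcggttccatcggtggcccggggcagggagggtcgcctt
Bcl6 second start, chr16:23981284-23981533, minus strand: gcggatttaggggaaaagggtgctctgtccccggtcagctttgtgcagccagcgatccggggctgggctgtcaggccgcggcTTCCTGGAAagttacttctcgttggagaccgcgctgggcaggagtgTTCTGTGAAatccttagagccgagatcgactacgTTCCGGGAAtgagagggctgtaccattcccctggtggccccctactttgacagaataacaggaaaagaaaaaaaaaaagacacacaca
In Cish the copies TTCCTGGAA and TTCTTGGAA stood 2 bases apart, and the first of them began at the RefSeq start itself. The longer GENCODE transcript Cish-201 begins upstream, so that both copies lie in its first exon, outside the coding sequence. In Socs3 the copy TTCTTAGAA began 154 bases before the RefSeq start, in an intron of the transcript Socs3-202. In Bcl6 the upstream window held TTCTCAGAA at 118 bases before the start. The window of the downstream Bcl6 start, in an intron of Bcl6-201, held TTCCTGGAA, TTCTGTGAA and TTCCGGGAA at 168, 122 and 88 bases before that start. The windows of Ghr, Stat3, Stat5a, Stat5b, Igf1 and Socs1 did not hold these letters. A match is a description of letters and not evidence of binding, and no match says only that the palindrome is not in that window.

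The depth was 43421652 expected counts for replicate 2 and 42714567 for replicate 1. Where no read of a gene was counted, 3 counts remain possible, which is 0.0691 CPM in replicate 2 and 0.0702 CPM in replicate 1. All 10 listed muscle fibre genes, such as Acta1 and Ckm, were measured, and their summed level was 93382 TPM in replicate 2 and 105719 TPM in replicate 1, and the median of their log2 ratios was 0.00. Schwann cell markers set the libraries apart. All 6 of the 8 listed that reached the count minimum were at least 2-fold lower in replicate 2, against 0.701% of all 11125 genes compared. The summed level of the 8 was 13.7 TPM in replicate 2 and 60.2 TPM in replicate 1. The part of nerve tissue in any ratio below was not tested. Fewer cells of a type and less RNA per cell cannot be told apart in bulk tissue. Fibroblast markers summed to 109.6 TPM in replicate 2 and 148.2 TPM in replicate 1, and endothelial markers to 52.9 TPM in replicate 2 and 64.7 TPM in replicate 1. Macrophage markers summed to 7.94 TPM in replicate 2 and 10.1 TPM in replicate 1, and adipocyte markers to 4.46 TPM in replicate 2 and 4.81 TPM in replicate 1. These sums lay within 2-fold of each other, unlike that of Schwann cells. Lymphocyte and neutrophil markers were near 0, with a sum over 11 genes of 0.40 TPM in replicate 2 and 0.89 TPM in replicate 1 and no count of Cd8a, Nkg7 or S100a9 in either library. Liver markers, listed because Igf1 is abundant in that organ, summed to 1.75 TPM in replicate 2 and 1.52 TPM in replicate 1. Igfals alone held 1.55 TPM of this in replicate 2 and 1.52 TPM in replicate 1. Apoa1, Serpina1a and Fgb had no count in either library, and Alb had 9 counts in replicate 2 and 0 in replicate 1.

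The receptor and Stat5b were the most abundant of the 10 genes, and Socs3 and Socs1 were the least abundant. Levels are given in TPM, a share of all transcripts that corrects for transcript length and so allows genes to be compared. The order by mean level was Ghr, Stat5b, Bcl6, Stat3, Socs2, Stat5a, Cish, Igf1, Socs3 and Socs1. The values of the animals overlapped between the neighbours Bcl6 and Stat3, Socs2 and Stat5a, Stat5a and Cish, and Cish and Igf1. They also overlapped between Socs2 and Cish and between Cish and Socs3, which are not neighbours. The order within all these pairs is not resolved. Ghr lay above 96.9% of protein-coding genes in replicate 2 and 97.0% in replicate 1. Cish lay above 77.4% of them in replicate 2 but only 54.9% in replicate 1, and Socs2 above 76.9% in replicate 2 and 64.2% in replicate 1.

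**Figure D1:**
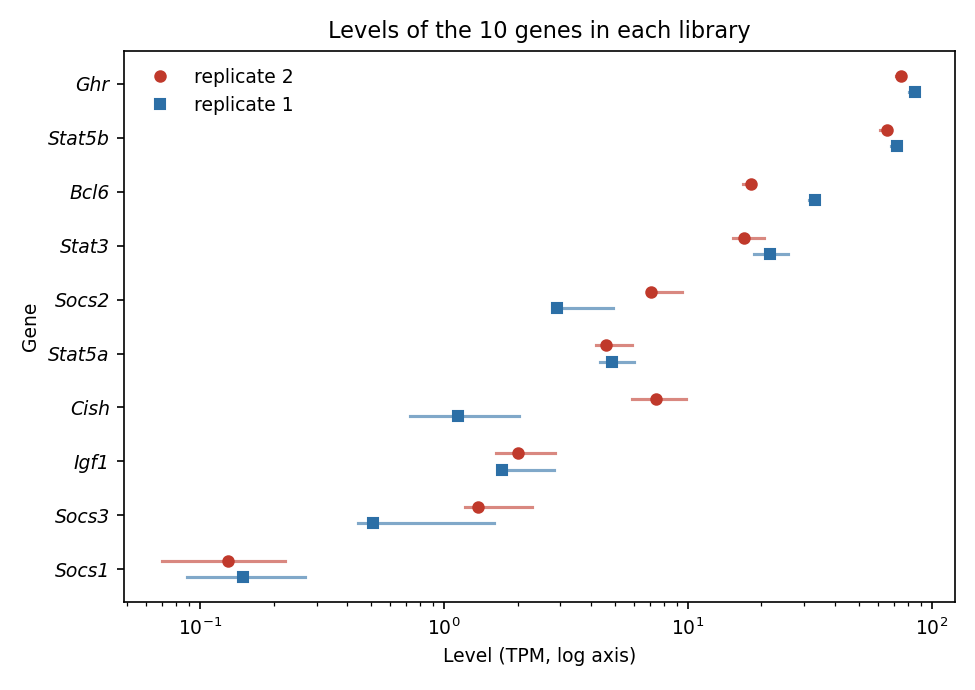
Level of each of the 10 genes in TPM on a log axis, with replicate 2 as circles and replicate 1 as squares, and bars for the authors' credibility bounds. Cish and Socs2 are far higher in replicate 2, at 7.36 and 7.05 TPM against 1.14 and 2.91 TPM in replicate 1, while the points of Stat5a and Socs1 nearly coincide.

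Positions of genes are those of GENCODE M21 on mm10. Cish, on chromosome 9 at 107296026 to 107302784 on the plus strand (ENSMUSG00000032578.7), encodes CIS, the inhibitor first described as a rapid product of cytokine signalling through STAT5. Its expected count was 317 in replicate 2 and 55 in replicate 1, with exact 95% Poisson intervals of 283 to 354 in replicate 2 and 41.4 to 71.6 in replicate 1. The level was 7.36 TPM in replicate 2, with the authors' credibility bounds at 5.89 and 9.79, and 1.14 TPM in replicate 1, with bounds at 0.724 and 2.02. Replicate 2 was the high library and the bounds did not meet, although the mean over both animals was 4.25 ± 4.40 TPM (SD, n = 2), a spread as large as the level itself. After scaling by library size, replicate 2 over replicate 1 gave a log2 ratio of 2.47, or 5.54-fold, with an exact conditional binomial 95% interval of 4.27 to 7.73. Such intervals, here and below, cover the counting error of reads and nothing else. They leave out differences between animals, dissections and library preparations, and the counts are of reads and not of molecules. Over 7 other ways of scaling or counting, the log2 ratio of Cish ran between 2.34 and 2.68.

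Socs2, on chromosome 10 at 95385362 to 95417180 on the minus strand (ENSMUSG00000020027.18), encodes a ubiquitin ligase adaptor that restrains growth hormone signalling, and mice without it grow large. Its count was 425 in replicate 2 and 141 in replicate 1, and its level 7.05 TPM in replicate 2 (bounds 6.89 to 9.42) and 2.91 TPM in replicate 1 (bounds 3.00 to 4.92). Replicate 2 was again the high library (mean 4.98 ± 2.93 TPM, SD, n = 2), and the authors' point estimate in replicate 1 lay just below its own bounds. The log2 ratio was 1.56, or 2.95-fold (95% interval 2.46 to 3.63), and it ran between 1.27 and 1.58 over the alternatives.

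Socs3, on chromosome 11 at 117966079 to 117970047 on the minus strand (ENSMUSG00000053113.3), encodes the inhibitor of receptors that signal through the shared subunit gp130. It had 109 counts in replicate 2 and 35 in replicate 1, at 1.38 TPM in replicate 2 (bounds 1.22 to 2.30) and 0.51 TPM in replicate 1 (bounds 0.445 to 1.60). The log2 ratio was 1.57, or 2.97-fold (95% interval 2.09 to 4.65). Replicate 2 was higher in counts, but the credibility bounds of the level overlapped. Socs1, on chromosome 16 at 10782240 to 10785536 on the minus strand (ENSMUSG00000038037.5), encodes an inhibitor that binds JAK kinases directly and is best known from interferon responses. It had 11 counts in replicate 2 and 12 in replicate 1, at 0.13 TPM in replicate 2 and 0.15 TPM in replicate 1. These counts lay below the minimum for a ratio, a mean of 50, and their 95% interval of 0.362 to 2.24 for replicate 2 over replicate 1 leaves a 2-fold difference in either direction undetectable at this depth.

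Of the 9 members that reached the minimum, 3 were at least 2-fold higher in replicate 2 (Cish, Socs2 and Socs3) and none was at least 2-fold lower. Among all 11125 genes that reached it, 0.683% were at least 2-fold higher in replicate 2 and 0.701% at least 2-fold lower. The members were named with this contrast in view, so nothing is read from their count. All 3 encode feedback inhibitors that hormones and cytokines are known to induce, as does Socs1, which was too low to compare. Whether a hormone or cytokine had a part in these ratios was not tested.

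**Figure D2:**
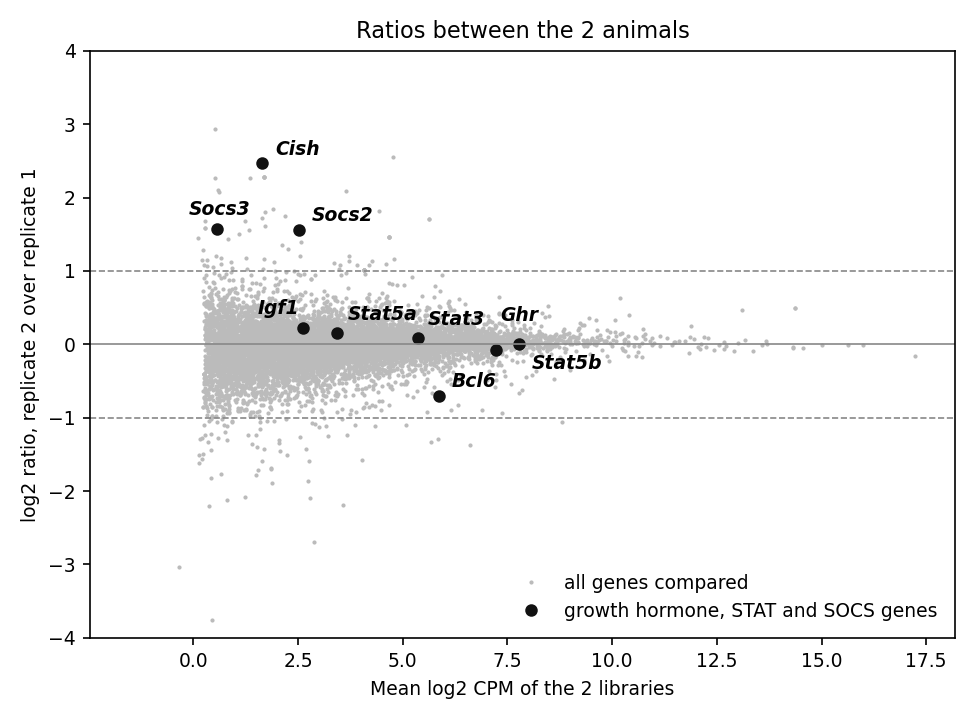
Log2 ratio of replicate 2 over replicate 1 against mean log2 CPM for the genes with a mean count of at least 50, with the 9 measured members in black and dashed lines at 2-fold; 10 other genes lie beyond the axis. Cish, Socs2 and Socs3 stand above the upper line, Bcl6 stands below 0, and the receptor and the STAT genes lie near 0.

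The receptor differed little. Ghr, on chromosome 15 at 3317760 to 3583492 on the minus strand (ENSMUSG00000055737.12), had 6276 counts in replicate 2 and 6539 in replicate 1, at 74.9 TPM in replicate 2 (bounds 71.0 to 76.4) and 85.2 TPM in replicate 1 (bounds 80.6 to 86.8). The log2 ratio was -0.08, or 0.949-fold (95% interval 0.917 to 0.983), so replicate 2 was the slightly lower library, and it stayed below 0 in all 7 alternatives. The mean was 80.1 ± 7.31 TPM (SD, n = 2), and the spread was small beside the level.

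Stat5b, which encodes the main STAT5 protein of growth hormone signalling in male mouse liver, lies on chromosome 11 at 100780731 to 100850724 on the minus strand (ENSMUSG00000020919.11). It had 9438 counts in replicate 2 and 9325 in replicate 1, at 65.35 TPM in replicate 2 and 72.17 TPM in replicate 1. The log2 ratio was 0.00, or 1.00-fold (95% interval 0.973 to 1.03), and its sign changed in 3 of the 7 alternatives, down to -0.14, so no direction is given. Stat5a, its close relative and neighbour on chromosome 11 at 100859351 to 100885169 on the plus strand (ENSMUSG00000004043.14), is best known for prolactin signalling in the mammary gland. It had 492 counts in replicate 2 and 436 in replicate 1, at 4.59 TPM in replicate 2 and 4.89 TPM in replicate 1. Its log2 ratio was 0.16 in counts (1.12-fold, 95% interval 0.979 to 1.27) and -0.09 in TPM, so no direction is given. Stat5b was the dominant form in both animals, with a level 14.2 times that of Stat5a in replicate 2 and 14.8 times in replicate 1. The genes are similar in sequence, but the deposited posterior SD of the count was 1.34% of the count for Stat5a and 0.07% for Stat5b in replicate 2, so few reads were shared between genes.

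Stat3, which carries interleukin-6 family signals, lies on chromosome 11 at 100885098 to 100939540 on the minus strand (ENSMUSG00000004040.16). It had 1820 counts in replicate 2 and 1695 in replicate 1, but 17.0 TPM in replicate 2 (bounds 15.3 to 20.5) and 21.8 TPM in replicate 1 (bounds 18.6 to 25.7). The count ratio was 0.09 on the log2 scale (1.06-fold, 95% interval 0.993 to 1.14), while the ratio of TPM was -0.36 and spike-in scaling gave -0.04, so no direction is given. The effective transcript length that divides the count was 3337 bases in replicate 2 and 2776 bases in replicate 1, a mean over its transcripts weighted by their shares of TPM. Stat3 and Stat5a overlap tail to tail by 72 bases on opposite strands, and whether the counting used strand is not given in the sources used here.

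Igf1, on chromosome 10 at 87858265 to 87937042 on the plus strand (ENSMUSG00000020053.18), was low and similar in both muscles. It had 285 counts in replicate 2 and 242 in replicate 1, at 2.00 TPM in replicate 2 (bounds 1.64 to 2.85) and 1.73 TPM in replicate 1 (bounds 1.66 to 2.81). The log2 ratio was 0.22, or 1.16-fold, and its 95% interval of 0.978 to 1.39 included 1. Igf1 therefore differed far less than Cish and Socs2, although all 3 are textbook STAT5 targets.

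Bcl6, on chromosome 16 at 23965052 to 23988852 on the minus strand (ENSMUSG00000022508.5), was lower in replicate 2. It had 1988 counts in replicate 2 and 3191 in replicate 1, at 18.0 TPM in replicate 2 (bounds 16.9 to 18.4) and 33.2 TPM in replicate 1 (bounds 31.3 to 33.5). The log2 ratio was -0.70, or 0.616-fold (95% interval 0.582 to 0.652), and it ran from -0.88 to -0.68 over the alternatives. The counts are large and the bounds did not meet, yet the difference stayed inside 2-fold, around a mean of 25.6 ± 10.7 TPM (SD, n = 2).

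The targets and the machinery above them were then set side by side. The median log2 ratio of Cish, Socs2 and Igf1 was 1.56, against 0.00 for Ghr, Stat5a and Stat5b. The difference of 1.56 ran between 1.42 and 1.57 over the alternatives. Library scaling shifts both medians alike, so the scaling alternatives could hardly move this difference. The median of Cish, Socs2 and Igf1 is the value of Socs2, with Cish at 2.47 above it and Igf1 at 0.22 below. These genes were picked with their differences known, and over the 17 measured genes of a longer list of STAT5 targets the median was 0.03. Ratios of counts taken within 1 library do not depend on how libraries are scaled. For every 1000 counts of Ghr, Cish had 50.5 counts in replicate 2 and 8.41 in replicate 1, and Socs2 had 67.7 in replicate 2 and 21.6 in replicate 1. Igf1 had 45.4 for every 1000 of Ghr in replicate 2 and 37.0 in replicate 1, so it kept close to the receptor while the other two did not. For every 1000 counts of Stat5b, Cish had 33.6 counts in replicate 2 and 5.90 in replicate 1. Bcl6 and Cish moved furthest apart, with 6.27 counts of Bcl6 for each count of Cish in replicate 2 and 58.0 in replicate 1. The rule that named these genes called for this comparison, and it shows that messenger levels of receptor and STATs were close while those of 2 feedback inhibitors were not. Phosphorylated STAT5 and circulating hormone were not measured, and Gh itself had no count in either muscle.

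Transcript use was read from the deposited transcript tables, where each transcript has its share of the gene's TPM. Ghr gives rise to the full-length receptor and, in mice, through an alternative exon, to the short growth hormone binding protein. Transcripts encoding the 650-residue receptor made up 56.3% of Ghr in replicate 2 and 61.3% in replicate 1. Those encoding the short form of 297 residues made up 35.55% in replicate 2 and 31.45% in replicate 1, with 918 counts behind them in replicate 2 and 806 in replicate 1. The short form was thus a substantial share in both muscles, and the deposited quantification made directly from reads gave a similar 33.4% in replicate 2 and 28.7% in replicate 1. Stat5b came mainly from Stat5b-202, which begins at the downstream first exon and held 81.7% of the gene in replicate 2 and 85.1% in replicate 1. In the quantification from reads it held less, 66.4% in replicate 2 and 71.4% in replicate 1. It encodes the same 786 residues as Stat5b-201. Stat3-203, which encodes the 770-residue form, held 68.05% of Stat3 in replicate 2 and 52.7% in replicate 1. In the quantification from reads it held 52.0% in replicate 2 and 39.6% in replicate 1. The truncated STAT3 beta of 722 residues held 0.42% in replicate 2 and 0.57% in replicate 1 in the quantification from alignments. Bcl6 was almost entirely Bcl6-201, at 99.5% in both animals.

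**Figure D3:**
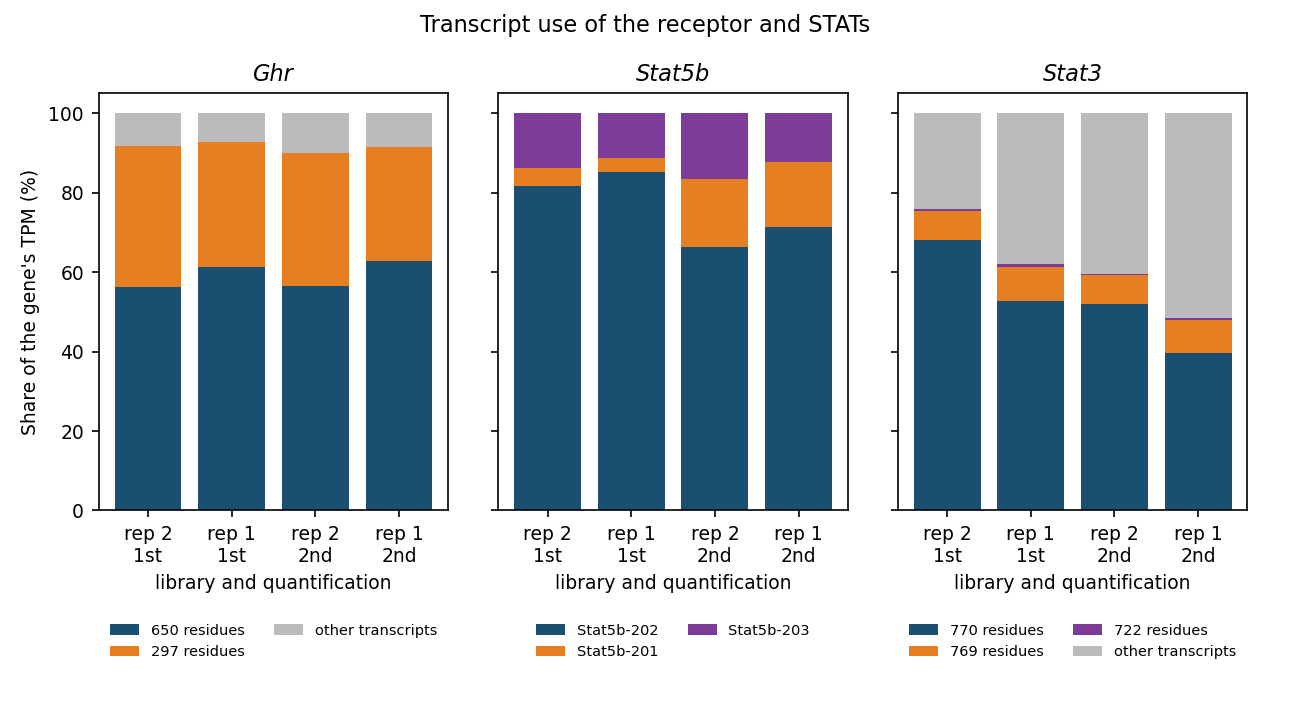
Share of each gene's TPM held by its transcripts, in percent, for Ghr, Stat5b and Stat3. Replicate 2 stands left of replicate 1 in each of the deposited quantifications (1st from alignments, 2nd directly from reads, as inferred from their layout). The 297-residue form of Ghr holds 28.7% to 35.55% in the 4 bars, and the share of Stat3-203 is higher in replicate 2 in both quantifications.

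Reads of Cish were not assigned to transcripts in a stable way. Cish-201, which encodes the full protein of 257 residues, had 112 counts in replicate 2 and 0 in replicate 1 in the quantification from alignments, but 299.9 in replicate 2 and 17.6 in replicate 1 in the one made from reads. Cish-204 had 147 counts in replicate 2 and 33.0 in replicate 1 in the quantification from alignments, and 6.62 in replicate 2 and 23.6 in replicate 1 in the other, where the direction was turned round. A short non-coding transcript, Cish-205, took 54.5% of the gene's TPM in replicate 2 from 34.98 counts. The count of the whole gene does not depend on that division, and in the quantification from reads its level was 5.63 TPM in replicate 2 and 1.30 TPM in replicate 1. In all, 7 of the 10 members had the same leading transcript in both libraries and both quantifications, and Cish, Socs1 and Stat5a did not. Cish also overlaps Gm17040 and Gm17041 on the opposite strand, Igf1 overlaps Igf1os and Bcl6 overlaps Gm37419, and none of these partners had a count in either library.

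The rest of the pathway was described from lists of textbook members. Of the 8 SOCS family genes, 7 reached the minimum, with a median log2 ratio of 0.11, against 0.00 over all 11125 genes, and beyond the 3 named above none was 2-fold apart. Socs7 was the most abundant, at 20.0 TPM in replicate 2 and 21.5 TPM in replicate 1, and Socs4, Socs5, Socs6 and Socs7 had log2 ratios of -0.14, -0.13, 0.11 and 0.10, with Socs6 and Socs7 at -0.02 and -0.03 under spike-in scaling. Cish, Socs2 and Socs3 were chosen with earlier results of these data known, so their place in the family is a description. Of the 7 STAT genes, 6 reached the minimum and none was 2-fold apart, against 1.38% of all 11125 genes in either direction. Their median was 0.04, and Stat2 was lowest at -0.53, from 93 counts in replicate 2 and 134 in replicate 1. Stat4, the STAT of interleukin-12 signalling in lymphocytes, had no counts.

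Kinases, phosphatases and adaptors of the pathway stayed within 2-fold, as did nearly all genes. Over all 11125 genes compared, 1.38% were at least 2-fold apart in either direction. Of 14 listed, 13 reached the minimum, none was 2-fold apart and 11 lay below 0, with a median log2 ratio of -0.04. Of those below 0, Ptpn11 and Pias1 lay just above it under DESeq2 size factors, at 0.004 and 0.01. Ptpn1, a phosphatase of the insulin receptor and JAK2, was lowest with 401 counts in replicate 2 and 508 in replicate 1, a log2 ratio of -0.36 (0.781-fold, 95% interval 0.683 to 0.892). Jak1 was the most abundant at 42.2 TPM in replicate 2 and 49.7 TPM in replicate 1. Jak2, the kinase bound to the growth hormone receptor, had 1259 counts in replicate 2 and 1199 in replicate 1, a log2 ratio of 0.05, or -0.07 under spike-in scaling. Of 24 cytokine receptor genes, 16 reached the minimum, none was 2-fold apart and 14 lay below 0, with a median of -0.17. Il6st, which encodes gp130, led at 84.8 TPM in replicate 2 and 86.4 TPM in replicate 1, a level near that of Ghr, whereas the prolactin receptor gene Prlr had 10 counts in each library. Of 18 ligand genes only Il15 and Ctf1 reached the minimum, neither 2-fold apart, and Il6 had 1 count in each library.

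In the insulin-like growth factor axis, 14 of 18 genes reached the minimum, with a median of -0.13. Against 0.683% higher and 0.701% lower over all 11125 genes, 1 was at least 2-fold higher in replicate 2 and none at least 2-fold lower. Stc2 encodes stanniocalcin-2, which blocks the protease that frees IGF from its binding proteins, and had 357 counts in replicate 2 and 104 in replicate 1, or 3.35-fold (95% interval 2.72 to 4.26). Irs1, the adaptor of the insulin and IGF-1 receptors, had 5165 counts in replicate 2 and 9732 in replicate 1, a log2 ratio of -0.93 that passed 2-fold under spike-in scaling, at -1.06. The receptors themselves differed little, with log2 ratios of 0.05 for Igf1r and 0.06 for Insr, and -0.07 for both under spike-in scaling. Igfbp5 was the most abundant of the axis, at 53.3 TPM in replicate 2 and 80.7 TPM in replicate 1.

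Genes listed as STAT5 targets in various tissues did not share a direction. The list was chosen with earlier results of these data known, so its counts are a description. Over all 11125 genes compared, 0.683% were at least 2-fold higher in replicate 2 and 0.701% at least 2-fold lower. Of 20 listed, 17 reached the minimum, 4 were at least 2-fold higher in replicate 2, 3 were at least 2-fold lower, and the median log2 ratio was 0.03. The higher ones were Cish, Socs2, Socs3 and Fos, an immediate early gene with 245 counts in replicate 2 and 78 in replicate 1 and a log2 ratio of 1.61. The lower ones were Ccnd1, which encodes cyclin D1, with 109 counts in replicate 2 and 277 in replicate 1 (log2 ratio -1.35), Id1, an inhibitor of differentiation factors, with 86 counts in replicate 2 and 191 in replicate 1 (-1.15), and the kinase gene Pim1, with 265 counts in replicate 2 and 527 in replicate 1 (-1.002). Pim1 stood at the limit, and under DESeq2 size factors it was inside it at -0.99. Gadd45g stood at the other limit with 232 counts in replicate 2 and 114 in replicate 1, 1.995-fold, and under DESeq2 size factors it passed 2-fold at 1.01, so that 5 were then higher and 2 lower. Mcl1, the most abundant of the list, had 44.9 TPM in replicate 2 and 45.4 TPM in replicate 1.

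Among 18 genes listed as STAT3 targets, 14 reached the minimum. Socs3 was at least 2-fold higher in replicate 2 and Pim1 at least 2-fold lower, against 0.683% and 0.701% of all 11125 genes. Pim1 was inside 2-fold under DESeq2 size factors. The median was 0.14, and Cebpd, an acute-phase regulator, lay just inside the limit with 339 counts in replicate 2 and 171 in replicate 1. None of the 6 partners of BCL6 was 2-fold apart (median 0.04), against 1.38% of all 11125 genes in either direction. Scaling by spike-ins lowered the median of all genes by 0.13 on the log2 scale, and with it the medians of the SOCS, STAT, STAT5 target and BCL6 partner lists from just above 0 to just below it.

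**Figure D4:**
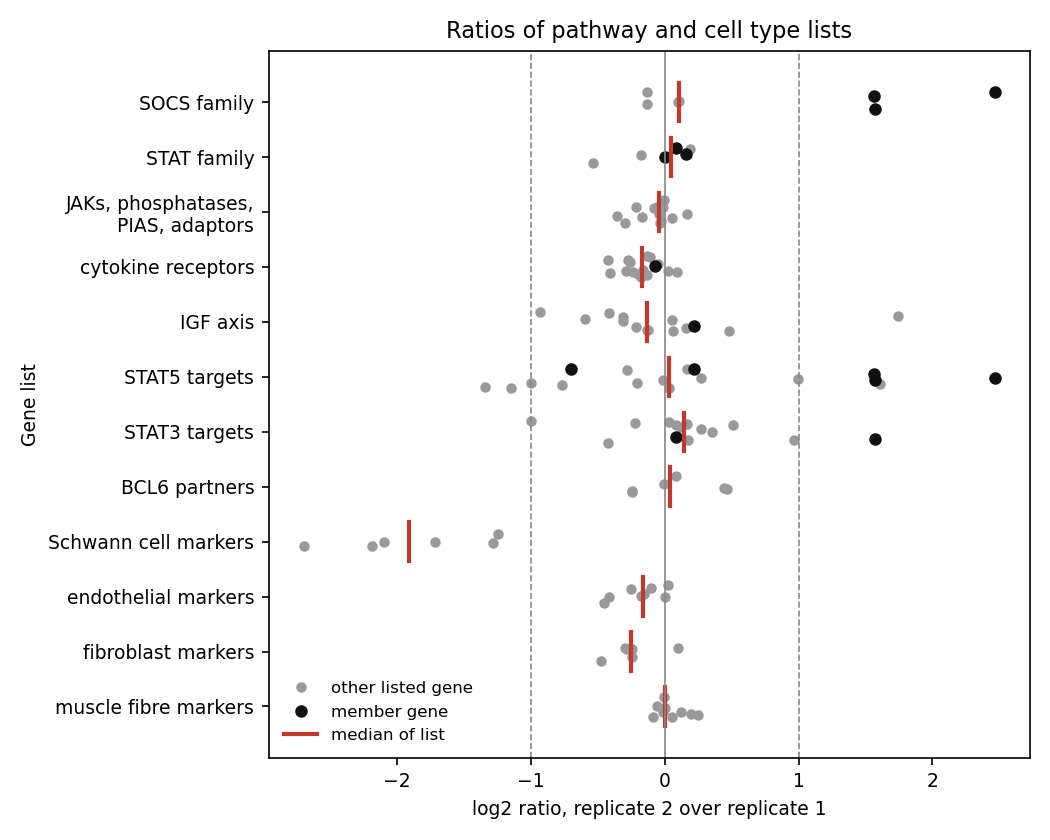
Log2 ratio of replicate 2 over replicate 1 for genes of pathway and cell type lists with a mean count of at least 50, with members in black, other genes in grey, list medians as red bars and dashed lines at 2-fold. The SOCS family holds 3 genes beyond 2-fold and 4 near 0, and the 6 Schwann cell markers all lie below the lower line.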

How the data were processed

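Total RNA of 2 gastrocnemius samples was sequenced from 300 ng each, with a stranded kit, ribosomal RNA reduction and spike-ins of the ERCC set, per the labels. The labels give both samples the same donor identifier but name animals 3 and 1, and they were treated as 2 animals of 1 group.

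The authors deposited expected counts per gene and transcript, in which a read that fits several features is shared out, and TPM values, scaled over all features including spike-ins. Rn7s1 and Rn7s2 together held 33.6% of TPM in replicate 2 and 27.0% in replicate 1, which lowers every other value. The deposited percent values are the share of a gene that each transcript holds, and the deposited upper credibility bounds of TPM, recorded as a signal because they need not sum to a fixed total, were used only as limits of intervals. The quantification from reads was deposited as estimated counts and TPM per transcript and was summed to genes. The build is mm10 and the annotation GENCODE M21, per the deposited descriptions. No program is named in the sources used here. That one quantification came from alignments and the other directly from reads was inferred from the layout of their columns.

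Expected counts were rounded. Log2 ratios came from CPM scaled by TMM over all genes in edgeR 4.0.16 (R 4.3.3), with a prior count of 2. They were compared over the 11125 genes with a mean count of at least 50. TPM ratios used a pseudocount of 0.01. Intervals of ratios are exact conditional binomial intervals, computed with SciPy 1.17.1. Genes whose posterior SD of the count was over 5% of it were taken to share reads. With 1 group no test exists. The ratio step was tested on simulated data. Alternatives were scaling by spike-ins, by DESeq2 1.42.0 size factors or by total counts, TPM ratios, a prior count of 0.5, posterior mean counts, the other quantification, a minimum of 10 and none, and single libraries. The members, gene lists and markers were chosen with earlier results of these data known. Named genes are all members, the listed genes past 2-fold, the highest of each list and the 5 nearest in ratio to Cish; other names, such as Stat2, Jak2, Ptpn1, Irs1, Gadd45g and Cebpd, were chosen after their values were seen. Not every gene or list covered by this rule is reported here. Per-allele expression was not analysed here.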

Additional observations from a re-analysis of the deposited data

How the results depend on the processing

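The number of members at least 2-fold apart was 3 in all 9 alternatives. The median of Cish, Socs2 and Igf1, picked with their differences known, exceeded that of Ghr, Stat5a and Stat5b on the log2 scale. The excess was 1.42 to 1.57 in the 7 alternatives with a value. Scaling by spike-ins, DESeq2 size factors or total counts shifts both medians alike, so these alternatives could hardly move the excess. Over 17 listed STAT5 targets the median was 0.03. Of 70 alternative log2 ratios of members, 60 stayed inside the counting interval of the ratio and 10 did not. Those 10 came from spike-in scaling (Stat3, Stat5b, Ghr and Bcl6) and from ratios of TPM (these, Stat5a and, at 1.27, Socs2), which lower the median of all genes by 0.13 and 0.17. Rescaling TPM over nuclear protein-coding genes raised all mean levels of members, for example to 174.8 TPM for Ghr against 80.1 TPM as deposited; which of the features left out accounts for this was not tested. Some transcript shares depended on the quantification. The mean share of Stat5b-202 was 83.4%, but 68.9% in the quantification from reads. That of Stat3-203 was 60.4% against 45.8%, and that of Socs3-201 was 100% against 76.2%. Leaving out replicate 2 or replicate 1 gives the other animal's values, so a ratio has no replicate check. Counts limit Socs1, at 11 in replicate 2 and 12 in replicate 1, and Socs3, at 109 in replicate 2 and 35 in replicate 1. No paired analysis was possible because only 1 group was sampled.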

Other observations

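Cish was near the top of the ratios between the animals. It was among the genes chosen with differences between these libraries already known, so its place is a description only. Among 11125 genes, 7 had a higher ratio of replicate 2 over replicate 1, and all 7 shared reads with other features by the criterion of the posterior SD. None of the 10694 genes that did not share reads had a higher one. Among the 5 such genes nearest to Cish in log2 ratio were Dusp10, Stc2, Snora23 and Gm23946. Dusp10, a phosphatase gene of the stress kinases p38 and JNK, had 1110 counts in replicate 2 and 257 in replicate 1, a log2 ratio of 2.09. Stc2 followed at 1.74, and the small nucleolar RNA genes Snora23 and Gm23946 at 1.72 and 1.68. With 1 ratio per gene, closeness of this kind rests on a single pair of libraries.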
